A study of Mus musculus with 4 samples.

Results

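Total histone H3 along the autosomes was compared between C2C12 myotubes and 38B9 pro-B cells after the level of each whole chromosome had been removed. Members of the comparison are the 2 libraries precipitated from these lines, of 4 in the series, and the autosomal bins that could be read in them. H3 is a core histone, and with H2A, H2B and H4 it forms the nucleosome around which DNA is wrapped. An antibody against total H3 recovers DNA in proportion to the number of DNA copies and to the H3 held and recovered per copy. A ratio of reads therefore holds both, and without an input library they cannot be told apart.

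The myotubes were made from C2C12, a line of mouse myoblasts, by 48 h in low horse serum with insulin, transferrin and selenium. Myotubes are in general fused cells that have left the cell cycle, and the share of unfused cells was not analysed here. 38B9 is a mouse pro-B line kept in normal culture, at the stage at which immunoglobulin heavy chain genes are rearranged. Each line is a single established line, so that a feature of the line and of the cell type cannot be told apart. V6.5 embryonic stem (ES) cells, grown off feeders before the experiment and of C57BL/6-129 background, untreated or in 10 uM of the TGF-beta receptor inhibitor SB431542 for 24 h, served here only to show which of the lines departs.

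With 1 library a group, no difference between the lines could be tested or checked in a replicate. The 4 libraries held 12432118 (myotube), 13015879 (pro-B), 13132855 (untreated ES) and 13469179 (SB431542) distinct autosomal positions. Myotube, pro-B and untreated ES libraries share a sequencing run, per the file headers, and the SB431542 library came from another. Intervals are at 95% and hold counting error alone. Reads amplified by PCR without molecular identifiers are not independent molecules.

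For every bin, the log2 ratio of myotube to pro-B shares of autosomal reads was taken, and the median log2 ratio of the bin's own chromosome was subtracted. Of 24634 autosomal bins of 100 kb, 23330 had a mean of at least 100 reads over both libraries and were read. Another 743 bins held no read in any library, and 561 held too few. Of 246253 bins of 10 kb, 221605 passed a mean of at least 20 reads. Tested bins had a median of 538 myotube and 521 pro-B reads at 100 kb, which by formula gives a counting SD of 0.089 on the log2 scale. At 10 kb the medians were 55 and 54 reads and the counting SD was 0.28. Differences were called by size alone, at a corrected log2 ratio of 0.6 or more (1.52-fold) in either direction for 100 kb bins and of 1 or more (2-fold) for 10 kb bins.

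Before the correction, the chromosome medians parted 3 autosomes from the rest. Chromosome 15 had a median log2 ratio of 0.42 and chromosome 8 one of 0.32, both higher in myotubes, and chromosome 7 had a median of -0.23. The other 16 autosomes lay between -0.04 and 0.16, with chromosome 4 at 0.16 as the third highest and chromosomes 16 at -0.04 and 17 at -0.01 as the next lowest. Measured from the sum of both ES libraries, chromosome 15 departed on the myotube side (0.36 against -0.08 in pro-B cells). On chromosome 7 both lines were below the ES level, at -0.39 in myotubes and -0.16 in pro-B cells. Chromosome 8 was also below it in both, at -0.21 and -0.50. Its pro-B level lay farther below ES than its myotube level.

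**Figure D1:**
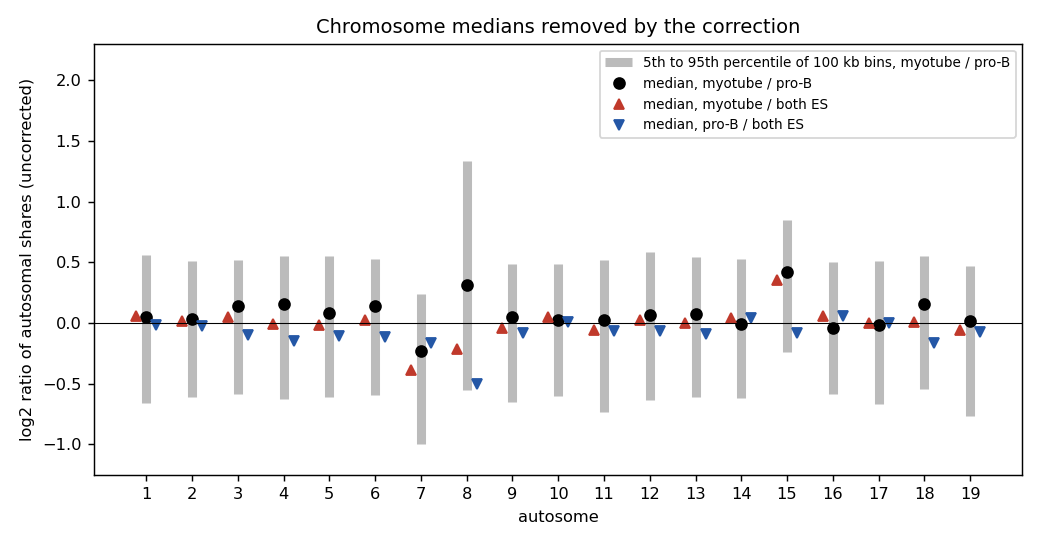
Uncorrected log2 ratios of autosomal shares (y axis) for the 19 autosomes (x axis). Black points are medians of myotube to pro-B over tested 100 kb bins, grey bars span the 5th to 95th percentile, and triangles are medians of myotubes (red) and pro-B cells (blue) to both ES libraries. Chromosomes 7, 8 and 15 stand apart, with medians of -0.23, 0.32 and 0.42.

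Removing these medians shifted the calls toward the lower side. Without it, 1087 bins were higher and 1475 lower in myotubes, with 589 of the higher ones on chromosomes 8 and 15 and 281 of the lower ones on chromosome 7. With it, 448 of 23330 bins (1.92%) were higher and 1889 (8.1%) were lower, or 10% in either direction. The higher share of called bins went from 42.4% to 19.2%. The SD of the log2 ratio fell only from 0.408 to 0.388. Across 100 kb bins the log2 counts of both lines correlated with r = 0.586 before and 0.605 after chromosome medians were removed, a description over neighbouring bins that share mappability and base composition.

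The corrected distribution was lopsided, with a long tail toward the pro-B side. Its 1st and 99th percentiles were 0.488 and 1.62 times, and its 5th and 95th percentiles were 0.613 and 1.39 times. At 2-fold or more, 280 bins were lower in myotubes and 75 higher. In 18 of the 19 autosomes lower bins outnumbered higher bins, and chromosome 8 was the exception with 154 higher and 152 lower. Without chromosome 8 the counts were 294 and 1737, or 5.91 lower bins per higher bin. The share of lower bins ran from 4.11% on chromosome 16 to 12.3% on chromosome 8. Higher bins ran from 0.0692% on chromosome 6 to 3.80% on chromosome 16, apart from 12.4% on chromosome 8. The bins nearest the limit were at 0.60002 and 0.59961 on the higher side and at -0.6001 and -0.59989 on the lower side.

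**Figure D2:**
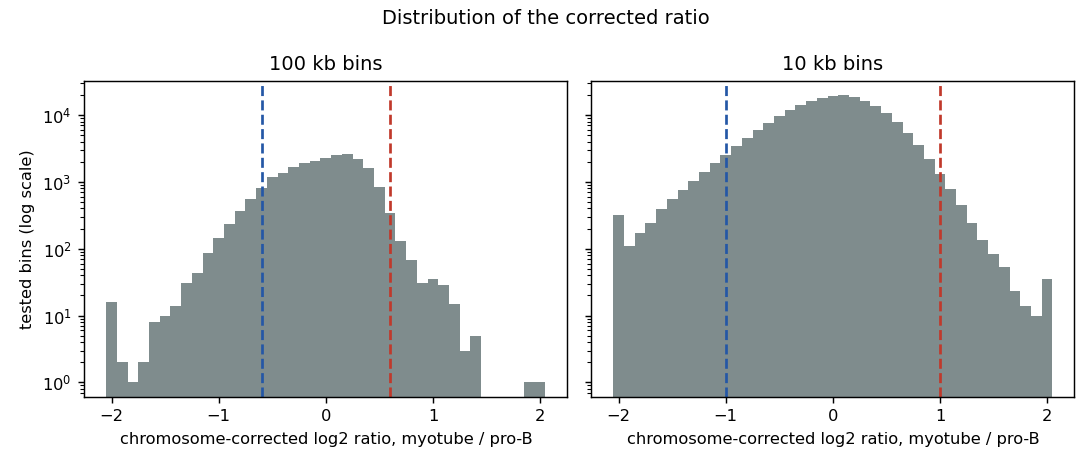
Number of tested bins (y axis, log scale) by corrected log2 ratio of myotube to pro-B (x axis, steps of 0.1, with values beyond -2 or 2 in the end bars). Dashed lines mark the limits of 0.6 for 100 kb bins (left) and 1 for 10 kb bins (right), and in both panels more bins lie past the lower limit (1889 and 8021) than past the higher one (448 and 2372).

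Set against the ES libraries, the lower bins were mostly places where the pro-B library was high. A line was said to depart where its corrected log2 ratio to the ES sum was at least 2 times as far from 0 as that of the other line. Of the 1889 lower bins, pro-B cells departed in 1462 (77.4%), myotubes in 49 (2.59%) and both in 378. The sides use the same myotube and pro-B reads that made the calls, and their split over all tested bins is not given here. In these 1889 bins pro-B cells had a median log2 ratio to ES of 0.66, with a 10th to 90th percentile of 0.40 to 1.04. Myotubes had a median of -0.13 there (-0.36 to 0.13).

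Among the 448 higher bins the sides were mixed, and chromosome 8 decided the myotube part. Pro-B cells departed downward in 211, myotubes in 149 and both in 88. Without chromosome 8, pro-B cells departed in 209 of 294 higher bins and myotubes in 9. The median log2 ratios to ES were then -0.55 for pro-B cells and 0.13 for myotubes. Over all tested bins the corrected log2 ratio to ES had an SD of 0.347 for pro-B cells and 0.211 for myotubes. The spread around ES was the wider in pro-B cells. The ES sum joins libraries of different treatment and run, and with either ES library alone each of these 4 departure counts stayed within 1.5-fold.

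The spread of the ratio between the 2 libraries was above counting error at each bin size from 10 kb to 2 Mb. Counting error is less than what repeated cultures and precipitations of 1 line would add, and that spread was not measured, so this does not show how much of it is a difference between the lines. The SD of the corrected ratio was 0.503 at 10 kb, 0.388 at 100 kb, 0.307 at 1 Mb and 0.268 at 2 Mb. Counting alone gives 0.289, 0.0927, 0.0288 and 0.0207 by formula. At 100 kb the spread was therefore 4.18 times that of counting, and at 1 Mb 10.7 times. A 200-fold larger bin, from 10 kb to 2 Mb, kept an SD beyond counting of 0.267 in place of 0.412.

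Bins near each other had like values. The correlation across pairs of 100 kb bins was 0.772 for neighbours, 0.439 at 0.5 Mb, 0.266 at 1 Mb, 0.1 at 3 Mb and 0.0049 at 10 Mb. Without chromosome 8 these were 0.759, 0.409, 0.231, 0.063 and -0.019. Neighbouring bins are therefore not independent. These correlations are descriptions within 1 pair of libraries.

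**Figure D3:**
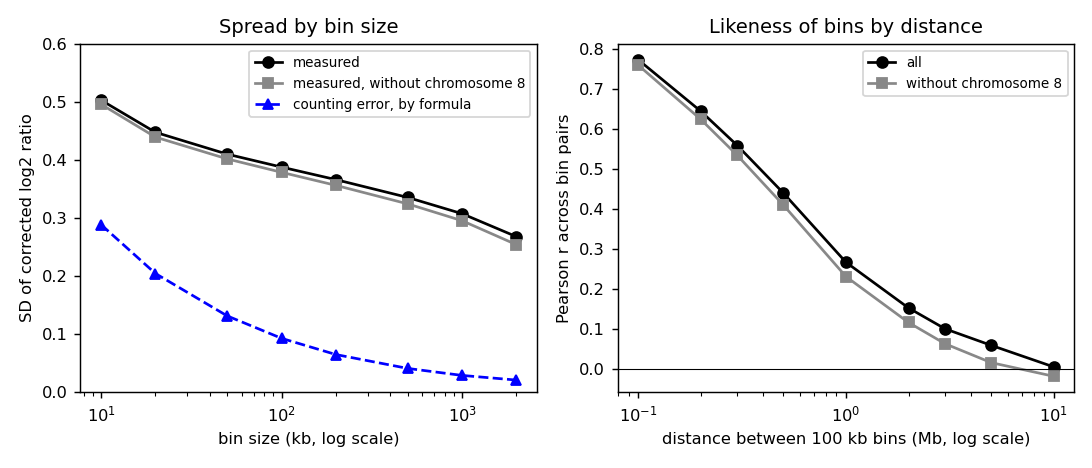
Left, SD of the corrected log2 ratio (y axis) by bin size in kb (x axis, log scale), as measured with and without chromosome 8 and as counting error gives by formula. Right, Pearson r across pairs of 100 kb bins (y axis) by their distance in Mb (x axis, log scale). The measured spread stays above counting error at every size (0.388 against 0.0927 at 100 kb), and r falls from 0.772 at 0.1 Mb to 0.266 at 1 Mb.

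Reads of the plus and minus strands are separate reads of the same library and were used to see how far the values repeat within it. Copies of a fragment made by PCR could give reads on both strands, which was not checked. The corrected ratio from plus strand positions correlated with that from minus strand positions with r = 0.892 at 100 kb and 0.498 at 10 kb. Of the bins called on both strands together, 289 of 448 higher and 1400 of 1889 lower bins passed 0.6 on each strand. When 100 kb bins were chosen on the plus strand alone, the 1943 lower bins had a median of -0.76 there and -0.73 on the minus strand. The 635 higher bins had 0.70 and 0.58. At 10 kb, choice on the plus strand gave 10848 lower bins with -1.22 there and -0.85 on the minus strand, and 6688 higher bins with 1.17 and 0.41. Strands are not replicates of a condition, since both share 1 culture and 1 precipitation.

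Neighbouring called bins were joined into domains when at least 3 of 1 direction followed each other without a gap. There were 183 domains lower in myotubes, on all 19 autosomes, spanning 78.9 Mb and 3.38% of tested bins. Another 30 domains were higher, on 10 autosomes, spanning 24.1 Mb and 1.03% of tested bins. Of the higher domains 12 lay on chromosome 8, and the other 18 spanned 9.5 Mb on 9 chromosomes. The median length was 0.3 Mb for lower domains and 0.4 Mb for higher ones outside chromosome 8. Most called bins lay outside domains where chromosome 8 is left out, since 39.2% of lower and 32.3% of higher bins were in one.

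The lower domains had a median ratio of 0.562 times, which is a log2 ratio of -0.83. Their median log2 ratio to ES was 0.72 in pro-B cells and -0.11 in myotubes. Pro-B cells departed in 152 of 183, both lines in 29 and myotubes in 2. With the chromosome medians removed, all 183 were above the ES level in pro-B cells, from 0.16 to 1.85. By reads as counted, some of the 18 on chromosome 8 lay below both ES libraries. From 109500001 to 110500000 there were 6854 pro-B reads, with 7707 in untreated ES and 8437 in SB431542-treated cells. Without chromosome 8, the 165 lower domains had median log2 ratios to ES of 0.75 in pro-B cells and -0.10 in myotubes. Around the domain centres the mean pro-B level was 1.85 times the median 10 kb bin of the chromosome, and it fell to 1.24 times at 500 kb before and 1.23 times at 500 kb after the centre. At 1000 kb it was 1.18 and 1.17 times, still above the chromosome median. Myotubes stood at 0.952 times at the centre, untreated ES cells at 1.02 times and SB431542-treated cells at 1.015 times. The domains were chosen on the pro-B and myotube reads plotted, while the ES levels were not used in the choice.

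The 18 higher domains outside chromosome 8 had a median ratio of 1.65 times. Each was below the ES level in pro-B cells, at log2 ratios from -0.85 to -0.39, while myotubes ranged from -0.18 to 0.33. Pro-B cells departed in 15 and both lines in 3. Their mean pro-B level was 0.701 times the chromosome median at the centre, 0.789 at 500 kb before and 0.827 at 500 kb after it. The pro-B dip thus changed less over 500 kb than the pro-B peak of the lower domains did. On chromosome 8, by contrast, the myotube level was 1.88 times at the centre and stayed at 1.76 and 1.72 times at 1000 kb on either side.

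**Figure D4:**
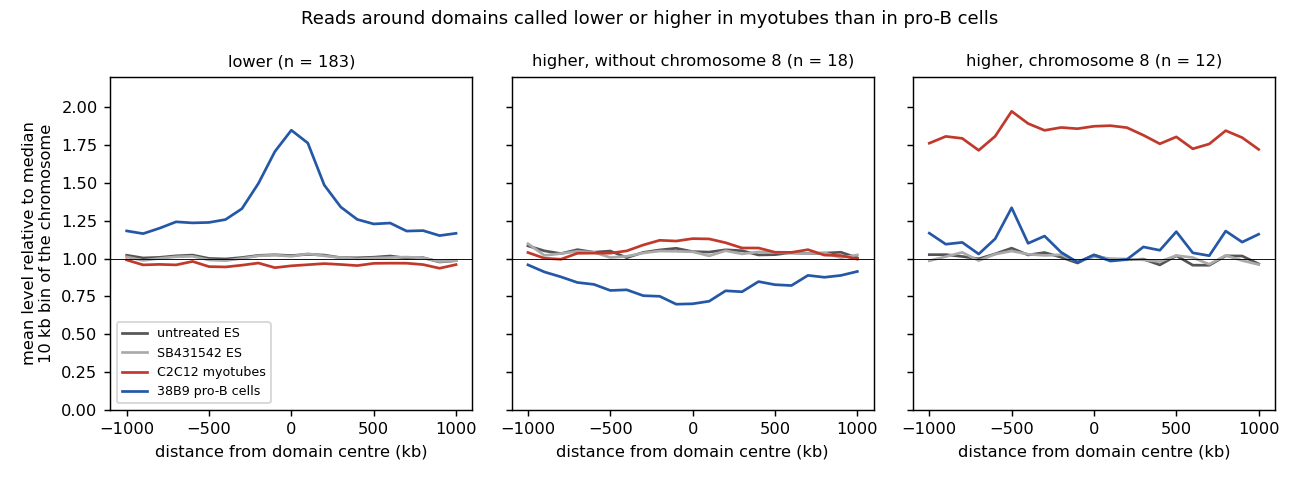
Mean level (y axis), in units of the median 10 kb bin of the chromosome in the same library, by distance from the domain centre in kb (x axis, steps of 100 kb) for the 4 libraries. The panels hold the 183 lower domains, the 18 higher domains outside chromosome 8 and the 12 on it. At the centre the pro-B line stands at 1.85 and 0.701 in the first 2 panels, and the myotube line at 1.88 in the third.

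Chromosome 8 kept large blocks after its median had been removed. The blocks were drawn from its own domains and calls after the values had been seen, so their counts are a description. From 3100001 to 81600000 the median corrected log2 ratio was 0.04 over 733 tested bins, and 6 were higher and 60 lower. From 81600001 to 101600000 it was 0.84, with 148 of 200 bins higher. From 107000001 to 132100000 it was -0.45, with 91 of 251 bins lower and none higher. After each line's own chromosome 8 median had been removed, the median log2 ratio to ES in the middle block was 0.90 in myotubes and 0.05 in pro-B cells, and in the distal block -0.39 and 0.01. Without that step the middle block stood at 0.68 and -0.45 from ES, and its median log2 ratio of myotube to pro-B was 1.16, with 178 of 200 bins higher. The distal block then stood at -0.60 and -0.49, both below ES, with a median log2 ratio of -0.13 and 36 of 251 bins lower in place of 91. Which line departed on chromosome 8, and most of the distal calls, thus depend on the correction.

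The 8 domains with the highest ratio were 7 on chromosome 8 and 1 on chromosome 1. The top one, chromosome 8 from 94000001 to 96800000, was also the longest domain of all. Over its 28 bins the myotube library had 821 to 1314 reads per bin (median 1108.5) and the pro-B library 325 to 614 (median 420.5). Untreated ES cells had 538 to 838 and SB431542-treated cells 532 to 917. All pro-B bins lay below all myotube bins there, and the corrected ratio was 2.12 times (2.08 to 2.17). The next 6, all between 81600001 and 101600000, ran from 1.78 times (88700001 to 89600000) to 2.01 times (84100001 to 86000000). Their longest was 98900001 to 101600000 at 1.95 times. When a running median narrower than the block replaced the chromosome median, these 7 ratios were 1.005 to 1.44 times.

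Chromosome 1 from 90500001 to 92400000 was the highest and longest of the higher domains outside chromosome 8. Its 19 bins held 468 to 729 reads in myotubes (median 641), 301 to 434 in pro-B cells (median 379), 504 to 732 in untreated ES (median 641) and 507 to 750 in SB431542-treated cells (median 603). Every pro-B bin was lower than every bin of the other 3 libraries. The ratio was 1.74 times (1.69 to 1.79), and the log2 ratio to ES was -0.71 in pro-B cells and 0.06 in myotubes.

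Further higher domains outside chromosome 8 were named after their values had been seen. Chromosome 13 from 59900001 to 60500000 had a ratio of 1.72 times (1.63 to 1.81), with 3935 myotube and 2272 pro-B reads. Proximal chromosome 16 held 4 of the 18, at 3700001 to 4100000, 5800001 to 6300000, 6800001 to 7700000 and 9600001 to 9900000. Their ratios were 1.56, 1.65, 1.65 and 1.59 times. In all 4 the pro-B library departed, with log2 ratios to ES of -0.79, -0.60, -0.68 and -0.65, while myotubes lay between -0.18 and 0.09.

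At the other end, the lowest ratio belonged to distal chromosome 12. Distal chromosome 12 is where the mouse carries its immunoglobulin heavy chain genes, which pro-B cells assemble by recombination. No gene was placed on the bins here, as no annotation of mm8 was used. From 115900001 to 116500000 the libraries held 883 (myotube), 4855 (pro-B), 1461 (untreated ES) and 1416 (SB431542) reads, a corrected ratio of 0.182 times (0.169 to 0.195). From 114300001 to 115800000 they held 3406, 10639, 4157 and 4100 reads, a ratio of 0.320 times (0.308 to 0.332). Pro-B reads were the highest of the 4 in both. Only 36 and 100 of the 10 kb bins of these domains could be tested. Reads with 2 places held 992 and 2729 myotube and 6148 and 9351 pro-B positions there. With them added the ratios were 0.1695 and 0.3052 times. The log2 ratio to ES was 1.85 and 1.46 in pro-B cells, and summed myotube reads lay below ES, at -0.63 and -0.20. By bin the myotube values ran from -1.44 to -0.07 in the first domain. In the second they ran from -1.61 to 0.52, so that some of its bins were above ES.

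Chromosome 4 from 88600001 to 89000000 had the second lowest ratio, at 0.253 times (0.231 to 0.276), and there the myotube library departed. Its 4 bins held 0 to 412 myotube reads, against 481 to 684 in pro-B, 320 to 503 in untreated ES and 330 to 527 in SB431542-treated cells. The bin from 88800001 to 88900000 had 0 myotube and 481 pro-B reads, and it was the only tested 100 kb bin without a read in either line. The other lower domain with myotubes as the departing side was chromosome 17 from 6200001 to 6500000, at 0.567 times with 1034 myotube and 1926 pro-B reads.

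A pair of compact domains on chromosome 4 stood out by their high pro-B level. From 102000001 to 102400000 pro-B cells had 1091 to 1412 reads per bin, where myotubes had 510 to 720, untreated ES 534 to 631 and SB431542-treated cells 523 to 627. The 3 other libraries overlapped, and the pro-B library lay above them in each bin. Its level was 2.66 times the median bin of the chromosome, and the corrected ratio was 0.421 times (0.40 to 0.442). From 44600001 to 45000000 the pro-B level was 2.62 times the median bin, with 845 to 1513 reads per bin against 456 to 689 in myotubes. The ratio there was 0.419 times (0.398 to 0.440).

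The remaining domains with the lowest ratios involved both sides. Chromosome 8 from 123400001 to 123800000 was at 0.409 times (1438 myotube and 2958 pro-B reads), inside the distal block, and at 0.509 times without the correction. Chromosome 19 from 8800001 to 9200000 was at 0.440 times (1674 and 3941 reads), with pro-B cells at 0.59 and myotubes at -0.60 from ES. Chromosome 10 from 21800001 to 22100000 was at 0.383 times (478 and 1281 reads). Only 10 of its 10 kb bins could be tested and 1693 distinct myotube positions there were of reads with 2 places. With 2-place reads added its ratio was 0.535 times.

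In the 3 longest lower domains the pro-B library departed. The longest was chromosome 6 from 68000001 to 70000000, 20 bins at 0.542 times (0.523 to 0.561), with 4999 myotube, 8743 pro-B, 4678 untreated ES and 4959 SB431542 reads. Only 121 of its 10 kb bins could be tested. Reads with 2 places added 3772 myotube and 7091 pro-B positions there, and with them the ratio was 0.525 times. Chromosome 6 carries the immunoglobulin kappa genes, which pro-B cells have in general not yet rearranged. In every one of the 20 bins the pro-B library was above ES, by log2 ratios of 0.73 to 1.68, and the myotube library lay between -0.11 and 0.25. After the 1.5 Mb of distal chromosome 12 the third longest was chromosome 11 from 44200001 to 45400000. There pro-B cells had 938 to 2089 reads per bin and myotubes 488 to 737, untreated ES cells 511 to 730 and SB431542-treated cells 556 to 708. All 12 pro-B bins exceeded every bin of the other libraries, and the ratio was 0.473 times (0.459 to 0.486).

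**Figure D5:**
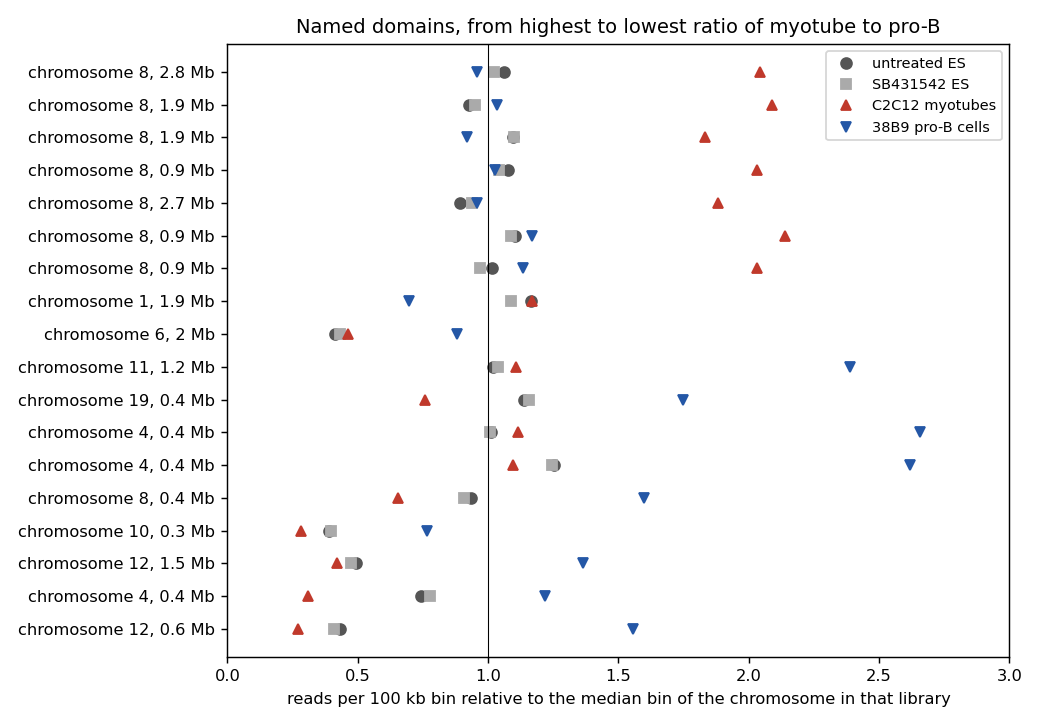
The 18 named domains (rows, by chromosome and length, from the highest to the lowest ratio of myotube to pro-B) and their reads per 100 kb bin relative to the median bin of the chromosome in the same library (x axis) for the 4 libraries. Red triangles stand apart in the 7 chromosome 8 rows at the top and blue ones in most rows below, such as 2.66 and 2.62 in the chromosome 4 rows. Both ES libraries lie close together in each row.

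At 10 kb, 2372 bins (1.07%) were higher in myotubes and 8021 (3.62%) lower, 4.69% in either direction. Of the lower bins, 5173 (64.5%) lay in a 100 kb bin that was itself lower, and 2848 lay in uncalled ones. For higher bins, 1017 (42.9%) lay in higher 100 kb bins and 1352 in uncalled ones. Of tested 10 kb bins in lower 100 kb bins 28.6% were lower, against 1.43% in uncalled ones. In higher 100 kb bins 23.9% were higher, against 0.678% in uncalled ones. A 10 kb bin gives its reads to its 100 kb bin, so some of this overlap is given in advance. Pro-B cells departed in 5273 of the lower bins and myotubes in 547. In the higher bins pro-B cells departed in 1043, myotubes in 570 and both in 759. The sides use the reads that made the calls, and their split over all tested 10 kb bins is not given here. Over all tested 10 kb bins the corrected log2 ratio to ES had an SD of 0.448 for pro-B cells and 0.330 for myotubes. The bins nearest the limit held 68 myotube and 35 pro-B reads just inside (log2 ratio 1.0003) and 63 and 32 just outside (0.99987). On the lower side they held 53 and 102 reads just inside (-1.0001).

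Within 100 kb bins, the 10 kb pieces varied more in lower bins than in the others. Among bins with at least 8 tested 10 kb pieces, the median SD of the pieces was 0.416 in lower bins, where counting gives 0.258. It was 0.282 in higher bins, where counting gives 0.290, and 0.311 against 0.285 in bins of neither call. The median SD of higher bins thus did not exceed counting. A separate summary of the SD beyond counting, which does not follow from these medians, was 0.386 in lower, 0.128 in higher and 0.175 in uncalled bins. A lower bin held 2.79 lower 10 kb pieces on average. The lowest and highest piece of a bin had medians of -1.44 and -0.14 in lower bins, 0.29 and 1.20 in higher bins and -0.46 and 0.51 in uncalled bins. The 10 kb pieces share their reads with the 100 kb bins by which they were grouped.

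The most extreme 10 kb bins outside called 100 kb bins were mostly bins that 1 line lacked. Each of the 5 highest had 0 pro-B reads. They lay on chromosome 7 from 57710001 to 57720000 (50 myotube reads), chromosome 14 from 13960001 to 13970000 (55), chromosome 11 from 15190001 to 15200000 (50), chromosome 12 from 113880001 to 113890000 (46) and chromosome 4 from 25380001 to 25390000 (46). Against a floor of 3 reads in the bin, with the myotube reads taken as counted, myotubes were at least 20.6-fold, 19.1-fold, 17.1-fold, 15.3-fold and 14.7-fold higher. The exact intervals, which also hold the counting error of the myotube reads, had lower limits of 16.18, 15.03, 13.37, 11.98 and 11.47 times. Both ES libraries had reads in all 5, from 16 to 82.

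The 5 lowest had 0 myotube reads on chromosome 1 from 124560001 to 124570000 (54 pro-B reads), chromosome 17 from 36280001 to 36290000 (49) and chromosome 14 from 16230001 to 16240000 (48), where myotubes were at least 18-fold, 15.8-fold and 15.3-fold lower by the same floor. That floor takes the pro-B reads as counted. The exact intervals, which also hold the counting error of the pro-B reads, permit smaller differences, with upper limits of 0.0707, 0.0811 and 0.0833 times. Chromosome 12 from 114050001 to 114060000 had 1 myotube and 43 pro-B reads, a ratio of 0.034 times (0.00058 to 0.137). Chromosome 6 from 71950001 to 71960000 had 5 and 58 reads, or 0.090 times (0.026 to 0.204). Such empty bins were few in all, since 30 tested 10 kb bins held no myotube read and 7 no pro-B read. At 4-fold or more, 31 of the 221605 tested 10 kb bins were higher and 260 lower. Of these 260, pro-B cells departed in 123, both lines in 78 and myotubes in 59, by the same reads that made the calls. Of the 260 lower bins 75 lay on chromosome 12 and 29 on chromosome 4. These chromosomes hold 1098 and 1456 of the 23330 tested 100 kb bins, and their shares of tested 10 kb bins are not given here.

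Some single 100 kb bins outside domains were among the most extreme, and they were picked after the values had been seen. Chromosome 13 from 61900001 to 62000000 held 207 myotube and 38 pro-B reads, with 147 in untreated ES and 159 in SB431542-treated cells, a log2 ratio of 2.42. Chromosome 4 from 144800001 to 144900000 held 492 and 123 reads, with 355 and 347 in the ES libraries, a log2 ratio of 1.90. In both, the pro-B library departed. Chromosome 1 from 8100001 to 8200000 was the reverse case, with 76 myotube and 316 pro-B reads and 361 and 451 in the ES libraries, a log2 ratio of -2.03. Chromosome 13 from 120600001 to 120700000 held 70 and 335 reads, with 197 and 212 in the ES libraries, a log2 ratio of -2.26 in which both lines departed.

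Lower bins were more frequent where ES cells had more H3 reads, a measure that took no part in the call. Tested bins were ranked by their ES reads relative to the chromosome median and cut into 10 equal groups. In group 2 from the bottom 4.07% of bins were lower, in group 5 6.51% and in group 10 13.6%, against 8.1% over all tested bins. The lowest group had 7.24%. Higher bins made up 1.20% to 2.37% of a group, with no steady course. The median corrected log2 ratio was 0.08 in group 3 and -0.21 in group 10. Base composition was not analysed here, as no mm8 sequence was used. Reads with 2 places made up a median of 3.01% of positions in lower bins, 3.005% in bins of neither call and 2.21% in higher bins.

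Reads with 2 places, which took no part in the ratios, went the same way in most domains. Of 160 lower domains with at least 100 such distinct positions in myotubes and pro-B cells together, 151 were lower in myotubes by these reads as well. Of 20 higher domains 19 were higher. Outside chromosome 8 these counts were 137 of 145 and 8 of 9. Both kinds of read come from the same libraries, and the limit of 100 can be met through the line that is high. A like share over all bins is not given here. By position along the chromosome the corrected ratio moved little, from a median of 0.05 in the first of 5 equal parts to -0.06 in the last. Lower bins made up 7.40% of the first part and 10.7% of the last, or 7.54% and 9.28% without chromosome 8.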

How the data were processed

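Sonicated chromatin was precipitated with an antibody against H3, amplified by LM-PCR and cut from a gel by size, per the labels' protocols. What the authors deposited is, for each aligned read, its position, negative on the minus strand, with no normalised value. Alignment was to mm8 with Bowtie, whose version is not given in the sources used here, per the file headers, with a seed of 36, at most 2 seed mismatches and at most 2 places. The sections were read as reads with 1 place and reads with 2 places, an inference from their names. Repeats of the same position on the same strand were counted once, and 2-place reads were left out unless stated. Repeats made up 2.80% of pro-B and 3.43% of myotube reads.

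Counts per bin, with 0.5 added, were divided by the autosomal total. Chromosome X and the other chromosomes were left out. Python 3.11.15, numpy 2.4.6, pandas 2.3.3 and scipy 1.17.1 were used. Ratios of domains are of summed reads with exact conditional binomial intervals, divided by the chromosome's median ratio, which was taken as fixed. Calling was checked on simulated reads. The members, limits and lists were chosen with earlier results of these data known. Named features are the 8 highest and 8 lowest domains, the 3 longest per direction, the 5 highest and 5 lowest 10 kb bins outside called 100 kb bins (at most 1 per megabase), and the 3 highest and 3 lowest chromosome medians. Gene tables were of GRCm38 while positions are on mm8, so no gene, sequence or GC value was placed on the bins.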

Additional observations from a re-analysis of the deposited data

How the results depend on the processing

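Of 60 recomputed bin and domain counts 38 stayed within 1.5-fold. None of 72 recomputed domain ratios crossed 1, but 34 left the interval of their own domain. The named domains were chosen for extreme ratios or length, so that not crossing 1 says little about their stability. With a local running median, chromosome 12 from 115900001 to 116500000 went from 0.182 times (0.169 to 0.195) to 0.234 times. Chromosome 8 from 88700001 to 89600000 then went from 1.78 to 1.005 times. The excess of lower over higher bins held under every alternative of the bin calls that was run. Higher 100 kb bins numbered 1087 without centring, 258 with a local running median (lower bins 1587, so that 14.0% were higher), 294 without chromosome 8 and 251 without chromosomes 7, 8, 12 and 15. Without centring 42.4% of called 100 kb bins were higher. Limits of 0.4 and 1 gave 2197 and 75 higher and 4127 and 280 lower bins. At 10 kb, higher bins numbered 4612 without centring (40.8% of called bins) and 1402 with a local running median, and limits of 0.8 and 1.5 gave 6858 and 171 higher (31.6% and 10.3%) and 14867 and 1489 lower bins. Higher domains numbered 88 without centring and 18 without chromosome 8, an alternative added after seeing the data. Runs of 2 and of 5 bins gave 61 and 17 higher and 422 and 53 lower domains, and a limit of 0.4 gave 199 and 501. With a departing side at 3 times, myotubes departed in 26 lower bins in place of 49. The SD of the 100 kb ratio was 0.408 without centring and 0.379 without chromosome 8. Looser limits and shorter runs give more calls by construction, and other causes were not tested. At 10 kb about 55 reads per bin limit the precision of a single value. No paired analysis was possible because each group had 1 library.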
